A study of Mus musculus with 18 samples.

Results

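Pecam1, Cdh5, Cldn5, Kdr, Flt1, Tek, Selp and Vwf are marker genes of endothelial cells, the cells that line blood vessels. They were taken by symbol from the deposited gene table, where 8 of 8 were found among 17198 genes. RNA had been sequenced from mouse cultures that the labels call DRG neurons, sensory neurons of the dorsal root ganglia beside the spinal cord. Wild-type (WT) cultures were compared with heterozygous (HET) cultures, whose genotype is given as Dynlrb1(tm1a/+). Dynlrb1 encodes a light chain of the motor dynein, and tm1a is a knockout-first allele. RNA was taken at 12, 24 and 48 h, with 3 cultures in each of the 6 groups and 18 samples in all. In each genotype the 12 h and 24 h cultures were numbered 1, 2 and 5, and the 48 h cultures 1, 2 and 3. Strain, age and sex of the mice, pooling of animals and any agent added to the medium are not given in the sources used here. Nothing used here says whether cultures came from separate animals, so p-values measure the spread between these samples, which may be technical.

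Endothelial cells hold a vessel wall together through adhesion molecules at their borders, among them the cadherin of Cdh5, the immunoglobulin-family protein of Pecam1 and the tight-junction claudin of Cldn5. They read growth factors through the VEGF receptors of Kdr and Flt1 and the angiopoietin receptor of Tek. In storage granules called Weibel-Palade bodies they keep the clotting factor of Vwf and the leukocyte-catching P-selectin of Selp. Ganglia carry a dense capillary bed, and dissociating them releases vessel cells with the neurons. Platelets also make P-selectin and von Willebrand factor, and leukocytes also carry PECAM1.

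The authors' normalized counts are given below. Each column sums to nearly the same total, from 41509705 to 41509874, so the sequencing depth is unknown and precision rests on the spread between cultures. The targeted gene, Dynlrb1, had normalized counts of 2716 to 4087 in HET cultures and 5229 to 6674 in WT cultures, with no overlap. Markers of sensory neurons summed to 323199 to 498574 in each culture, and the 8 endothelial genes to 6226 to 15525. Fewer endothelial cells and less of an RNA per cell cannot be told apart in such bulk samples. One library stood apart. Over all genes, HET 48 h replicate 3 lay nearer to the mean of the WT 24 h group (root mean square difference 0.365 on the log2 scale) than to the mean of the other HET 48 h cultures (0.580). The other 17 samples were each nearest to a group of their own time. Results that rest on this library are given with and without it.

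The 8 genes lie on 7 chromosomes and are all protein coding (GRCm38 coordinates, GENCODE annotation). Pecam1 spans chr11:106654217-106750628 on the minus strand, Cdh5 chr8:104101625-104144511 on the plus strand and Cldn5 chr16:18776847-18778262 on the plus strand. Kdr spans chr5:75932827-75978458 and Flt1 chr5:147561604-147726011, both on the minus strand, and Tek spans chr4:94739289-94874976 on the plus strand. Selp spans chr1:164115264-164150026 and Vwf chr6:125546774-125686679, both on the plus strand. The annotation places an antisense gene, Gm29682, over Cdh5, and the antisense gene Gm16587 and the lincRNA Gm16548 over Selp, all on the minus strand. Whether reads were counted by strand is not given in the sources used here, so reads of Cdh5 and Selp cannot be told apart from reads of these partners.

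RefSeq promoter sequences (GRCm38.p6) were matched for 5 of 8 members. The 250 bases before the annotated start are shown for the pair of genes with the largest falls, Selp and Cldn5, and for the VEGF receptor pair, Kdr and Flt1. Capitals mark GGAA or its reverse complement TTCC, the core letters that ETS-family factors, regulators of many endothelial genes, are known to bind. The windows are chr1:164115014-164115263 (plus strand) for Selp, chr16:18776597-18776846 (plus strand) for Cldn5, chr5:75978456-75978705 (minus strand) for Kdr and chr5:147726012-147726261 (minus strand) for Flt1.
Selp: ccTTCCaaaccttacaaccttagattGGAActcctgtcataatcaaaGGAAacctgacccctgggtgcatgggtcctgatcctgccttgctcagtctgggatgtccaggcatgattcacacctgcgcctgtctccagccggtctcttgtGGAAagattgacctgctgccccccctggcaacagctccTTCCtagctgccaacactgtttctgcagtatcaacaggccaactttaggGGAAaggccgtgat
Cldn5: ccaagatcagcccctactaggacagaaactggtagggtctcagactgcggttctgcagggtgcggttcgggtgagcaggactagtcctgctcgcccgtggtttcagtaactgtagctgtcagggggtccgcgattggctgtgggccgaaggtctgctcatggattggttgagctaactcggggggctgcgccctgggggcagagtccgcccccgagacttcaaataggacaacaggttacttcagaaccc
Kdr: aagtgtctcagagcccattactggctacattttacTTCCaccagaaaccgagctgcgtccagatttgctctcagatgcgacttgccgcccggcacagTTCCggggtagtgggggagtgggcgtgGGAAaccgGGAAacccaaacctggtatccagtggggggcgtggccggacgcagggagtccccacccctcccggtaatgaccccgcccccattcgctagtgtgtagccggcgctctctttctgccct
Flt1: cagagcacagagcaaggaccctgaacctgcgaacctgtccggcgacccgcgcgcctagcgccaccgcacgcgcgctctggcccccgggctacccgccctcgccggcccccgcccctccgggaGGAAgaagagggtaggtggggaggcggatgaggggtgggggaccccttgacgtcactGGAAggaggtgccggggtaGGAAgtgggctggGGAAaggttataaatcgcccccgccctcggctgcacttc
The letters GGAA or TTCC occurred 6 times in the Selp window, 0 times in the Cldn5 window, and 4 times each in the Kdr and Flt1 windows. The Tek window, not shown, held 2. Of 32851 promoter windows of the same length, 93.4% held at least 1 match, with a median of 3 matches. The FOX:ETS composite letters AACAGGAA (or TTCCTGTT, which contain the core letters) were in none of these 5 windows and in 2.25% of all windows. The GATA core letters GATAA (or TTATC) were in none of the 5 and in 22.6% of all. A match or its absence describes these letters in this window only.

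From 12 to 48 h, 4 of the 8 endothelial genes fell in WT cultures: Selp, Cldn5, Cdh5 and Pecam1. In HET cultures, 2 fell, Selp and Cldn5. Kdr, Flt1, Tek and Vwf did not pass the test in either genotype. Calls were made with limma on log2(normalized count + 1), adjusted over all genes by the Benjamini-Hochberg method and called below 0.05. Fold changes are given on this log2 scale, which understates changes of low genes. Over all genes, the same rule called 47.1% changed in WT, 17.1% lower and 30% higher. In HET it called 14.2% changed, 10.6% higher and 3.62% lower. Without HET 48 h replicate 3 it called 28.4% changed and 8.61% lower in HET, and without HET 12 h replicate 2, HET 48 h replicate 1 or HET 48 h replicate 2 it called 0 genes. The members' median log2 fold change was -0.72 in WT and -0.32 in HET, beside 0.11 and 0.10 over all genes. On the authors' plain adjusted columns, which are scaled differently, the median of all genes in WT was 0.00688 in place of 0.112, and 52.6% of the called genes were higher in place of 63.6%. The members' median there was -0.83 in WT, and Kdr and Vwf also passed, so that 6 of 8 were called. Over all genes those columns gave 46.2% called and 21.9% called lower in WT, in place of 47.1% and 17.1%. Fitted on the cultures compared alone, Cldn5 and Selp were not called in HET (limma adjusted p of 0.101 and 0.0983).

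**Figure D1:**
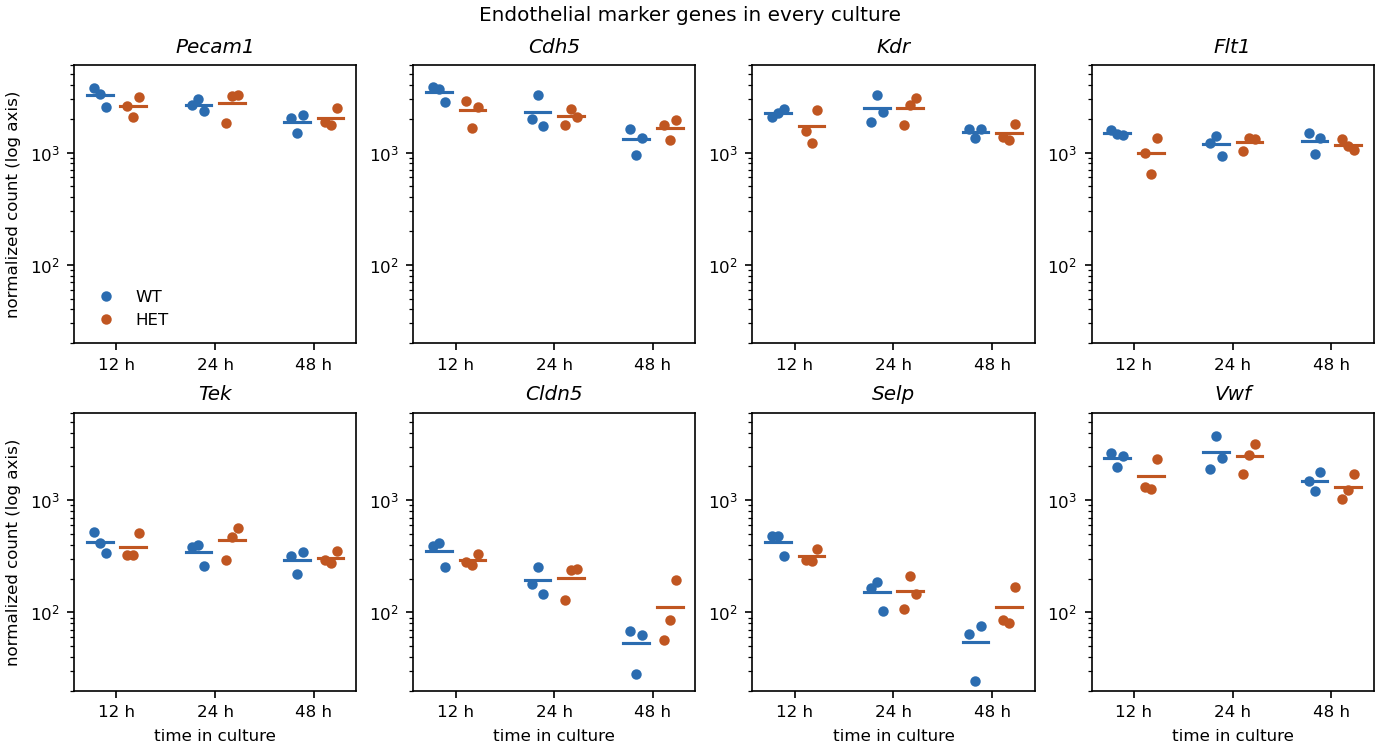
Normalized counts (log axis) of the 8 endothelial marker genes in each of the 18 cultures, by time in culture (hours) and genotype (WT blue, HET orange); points are cultures and lines are group means. Cldn5 and Selp descend from 251.5 or more in every 12 h culture to 194 or less in every 48 h culture, while the Flt1 points overlap across times apart from WT 24 h against WT 12 h.

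Among the junction genes, Cldn5, which seals the paracellular space of capillaries in brain and nerve, went lowest. Its normalized counts in WT were 389, 411.5 and 251.5 at 12 h, 179, 256 and 147 at 24 h, and 68.8, 28.2 and 63.1 at 48 h. In HET they were 282, 264 and 332 at 12 h, 128, 237 and 241 at 24 h, and 56.8, 84.7 and 194 at 48 h. All 48 h cultures lay below all 12 h cultures of their genotype, and the WT 48 h cultures also lay below all WT 24 h cultures. The 48 h mean was 15.2% ± 6.27 (SD, n = 3) of the 12 h mean in WT and 38.2% ± 24.7 (SD, n = 3) in HET. From 12 to 48 h this was a log2 change of -2.76 in WT (limma SE 0.40, adjusted p = 8.43e-05) and -1.57 in HET (limma SE 0.40, adjusted p = 0.0225). In WT the step from 24 to 48 h was -1.91 (limma adjusted p = 0.00464) and the step from 12 to 24 h was -0.85, which did not pass (limma adjusted p = 0.230). The highest HET 48 h culture was replicate 3, the library that stood apart. Without it the 12 to 48 h change in HET was -2.05 (limma adjusted p = 0.00107) and the 24 to 48 h change was -1.47 (limma adjusted p = 0.0134), against -0.98 (limma adjusted p = 0.190) with it. The HET call from 12 to 48 h was lost when any other of the 6 cultures compared was left out, with log2 fold changes from -1.64 to -1.18 and limma adjusted p from 0.0510 to 0.128.

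Cdh5, whose cadherin forms the adherens junctions of endothelium, had normalized counts in WT of 3878, 3716 and 2832.5 at 12 h, 1990.5, 3251 and 1722 at 24 h, and 1639, 944 and 1360 at 48 h. In HET the counts were 2907, 1644 and 2564 at 12 h, 1757, 2467 and 2082 at 24 h, and 1750.5, 1299.6 and 1957 at 48 h. WT cultures at 48 h lay below all WT cultures at 24 h and at 12 h, while the HET groups overlapped at every time. Cdh5 fell in WT, to 37.8% ± 10.1 (SD, n = 3) of its 12 h mean. That was a log2 change of -1.43 from 12 to 48 h (limma SE 0.26, adjusted p = 3.74e-04), with -0.80 from 24 to 48 h (limma adjusted p = 0.0293). In HET the 12 to 48 h value was -0.49 (95% interval -1.03 to 0.06, limma adjusted p = 0.202). The WT call from 24 to 48 h was lost without WT 24 h replicate 2 (-0.53, limma adjusted p = 0.162) or without WT 48 h replicate 2 (-0.58, limma adjusted p = 0.150), and with the removed directions (described with the processing) as covariates (-0.86, limma adjusted p = 0.0535).

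Pecam1 had the highest level per transcript length of the 8 genes, and a log2 change of -0.77 in WT. Its normalized counts in WT were 3787, 3327 and 2571 at 12 h, 2669, 3021 and 2324 at 24 h, and 2015.5, 1487 and 2169 at 48 h. In HET they were 2598, 2095.5 and 3140.5 at 12 h, 1845, 3208 and 3279 at 24 h, and 1877, 1772.5 and 2499.9 at 48 h. WT cultures at 48 h lay below all WT cultures at both earlier times, and the HET groups overlapped. The WT change from 12 to 48 h passed the test (limma SE 0.22, adjusted p = 0.00894) and left 58.6% ± 11.1 (SD, n = 3) of the 12 h mean. Without WT 48 h replicate 2, the lowest culture of its group, the value was -0.61 and the call was lost (limma adjusted p = 0.0576). In HET it was -0.35 (95% interval -0.81 to 0.12, limma adjusted p = 0.293).

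The 48 h means of the VEGF receptors in WT were 67.5% ± 7.13 (Kdr) and 85.0% ± 18.6 (Flt1) of their 12 h means (SD, n = 3). Kdr, the main signalling receptor for VEGF-A, had normalized counts in WT of 2082, 2268 and 2437 at 12 h, 1871, 3282 and 2301 at 24 h, and 1606, 1342 and 1634 at 48 h. The HET counts were 1549, 1219.5 and 2373 at 12 h, 1744, 2650 and 3055 at 24 h, and 1388, 1289.9 and 1792 at 48 h. The 24 h mean was the highest in WT and in HET, and the WT cultures at 48 h lay below all WT cultures at 12 and 24 h. The WT log2 fold change was -0.67 from 24 to 48 h (limma adjusted p = 0.0469) and -0.57 from 12 to 48 h, which missed the threshold (95% interval -1.07 to -0.06, limma adjusted p = 0.0601). The first of these calls was lost when any of 5 of the 6 cultures was left out, all but WT 24 h replicate 1 (limma adjusted p from 0.0629 to 0.222). In HET the 12 to 48 h value was -0.16 (95% interval -0.67 to 0.34, limma adjusted p = 0.677). On the plain adjusted columns the 12 to 48 h value in WT passed (-0.68, limma adjusted p = 0.0318), as it did in a fit of the cultures compared alone (-0.57, limma adjusted p = 0.00349). The 24 to 48 h value in HET was -0.71 (limma adjusted p = 0.109), and -0.85 without replicate 3 at 48 h (limma adjusted p = 0.0376).

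Flt1 encodes the second VEGF receptor, which binds VEGF-A tightly and also exists as a soluble decoy. Its normalized counts in WT were 1579.6, 1473 and 1425 at 12 h, 1207, 1409.5 and 931 at 24 h, and 1506, 963 and 1339 at 48 h. In HET they were 998, 651 and 1341 at 12 h, 1037, 1357 and 1309.6 at 24 h, and 1322, 1139 and 1062 at 48 h. The 12 and 48 h groups overlapped in both genotypes. Flt1 passed the test in none of the 6 time comparisons (limma adjusted p from 0.268 to 0.902), and the 12 to 48 h log2 fold change was -0.26 in WT (95% interval -0.72 to 0.21) and 0.29 in HET (95% interval -0.17 to 0.75).

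Tek, the receptor for the angiopoietins, was the lowest member per transcript length at 12 h in WT. Its normalized counts in WT were 526, 412 and 338 at 12 h, 386, 397 and 261 at 24 h, and 316, 221 and 348 at 48 h. In HET the counts were 322, 321 and 509 at 12 h, 294, 471 and 565 at 24 h, and 291, 273 and 355 at 48 h. The groups overlapped at every pair of times. Tek passed no time comparison, with -0.53 from 12 to 48 h in WT (95% interval -1.08 to 0.02, limma adjusted p = 0.105) and -0.30 in HET (95% interval -0.85 to 0.25, limma adjusted p = 0.451).

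Of the granule genes, Selp had the larger change. Selp had normalized counts in WT of 478, 474.5 and 319.6 at 12 h, 165, 187 and 103 at 24 h, and 64.8, 24.7 and 75.1 at 48 h. In HET they were 292, 286 and 369 at 12 h, 106, 209 and 147 at 24 h, and 85.7, 79.8 and 169 at 48 h. In WT each later group lay wholly below the earlier one. Selp fell in WT from 12 to 24 h (log2 change -1.50, limma adjusted p = 0.0416) and from 24 to 48 h (-1.55, limma adjusted p = 0.0086). The whole change was -3.05 (limma SE 0.38, adjusted p = 3.49e-05), which left 12.9% ± 6.28 (SD, n = 3) of the 12 h mean. It was the only member called from 12 to 24 h in WT, where 0.657% of all genes were called lower. That call was lost when any 1 of the 6 cultures was left out (log2 fold change from -1.69 to -1.24, limma adjusted p from 0.0609 to 0.160). The count of all genes called then went from 622 to 197 without WT 12 h replicate 1, to 85 without WT 12 h replicate 5 and to 0 without any 1 of the other 4. The call from 24 to 48 h was lost without WT 48 h replicate 2 (-1.06, limma adjusted p = 0.0503). In HET, Selp kept 35.4% ± 15.8 (SD, n = 3) of its 12 h mean, a log2 change of -1.57 (limma SE 0.38, adjusted p = 0.0184). Without HET 48 h replicate 3, the highest culture, that change was -1.91 (limma adjusted p = 0.00234). The HET call was lost without HET 12 h replicate 2 (-1.63), HET 48 h replicate 1 (-1.42) or HET 48 h replicate 2 (-1.37), with limma adjusted p from 0.0765 to 0.0998.

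Vwf, the other granule gene, had normalized counts in WT of 2611, 1994 and 2470 at 12 h, 1906.5, 3721 and 2379 at 24 h, and 1475, 1216 and 1791 at 48 h. In HET they were 1309, 1261 and 2350 at 12 h, 1696, 2509 and 3184.5 at 24 h, and 1026, 1232.6 and 1698 at 48 h. WT cultures at 48 h lay below those at both earlier times, and 24 h held the highest culture of each genotype. The WT log2 fold change was -0.80 from 24 to 48 h (limma adjusted p = 0.0442) and -0.67 from 12 to 48 h (95% interval -1.26 to -0.07, limma adjusted p = 0.0611). The first call was lost without WT 24 h replicate 2 (-0.53), WT 24 h replicate 5 (-0.85), WT 48 h replicate 1 (-0.80) or WT 48 h replicate 2 (-0.66), with limma adjusted p from 0.0644 to 0.215, and the second value passed without WT 48 h replicate 3 (-0.81, limma adjusted p = 0.0472) and on the plain adjusted columns (-0.77, limma adjusted p = 0.0356). It also passed in a fit of the cultures compared alone (-0.67, limma adjusted p = 0.0081) and with the removed directions as covariates (-0.71, limma adjusted p = 0.04995). In HET the 24 to 48 h value was -0.89 (limma adjusted p = 0.0927), and -1.08 without HET 48 h replicate 3 (limma adjusted p = 0.0234).

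**Figure D2:**
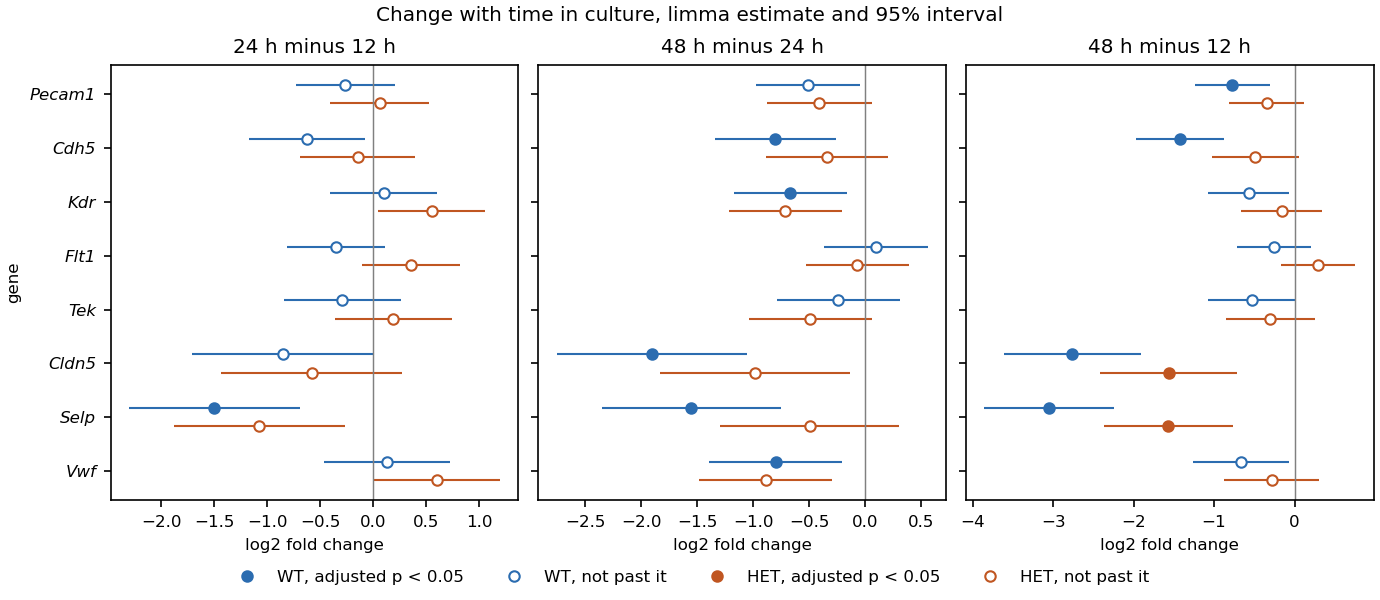
Log2 fold changes (x axis) of the 8 genes (y axis) between times, in WT (blue) and HET (orange) cultures, as limma estimates with 95% intervals; filled points passed the adjusted p threshold of 0.05. From 12 to 48 h, Selp (-3.05 in WT, -1.57 in HET) and Cldn5 (-2.76 and -1.57) stand farthest below 0.

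By interval, 1 of 8 genes was called lower from 12 to 24 h in WT and 5 of 8 from 24 to 48 h, where 10.3% of all genes were called lower. The 5 were Cldn5, Selp, Cdh5, Vwf and Kdr. Without WT 48 h replicate 2 only Cldn5 of them was called, without WT 24 h replicate 2 Cldn5 and Selp, and without WT 24 h replicate 5 or WT 48 h replicate 1 Cldn5, Selp and Cdh5. In HET, 0 of 8 were called in either interval by limma, where 18.9% and 2.49% of all genes were called, and 3 of 8 had an unadjusted p below 0.05 in each, beside 33% and 19.1% of all genes. The nearest in the first interval was Selp (-1.07, limma adjusted p = 0.0580). The others with an unadjusted p below 0.05 from 12 to 24 h were higher at 24 h. They were Kdr (0.55, limma adjusted p = 0.117) and Vwf (0.60, limma adjusted p = 0.147). Without HET 48 h replicate 3, Kdr, Cldn5 and Vwf were called from 24 to 48 h, and the share of all genes called went from 2.49% to 14.9%. In the authors' deposited table, the adjusted p was below 0.05 for 6 members from 12 to 48 h in WT (Pecam1, Cdh5, Kdr, Cldn5, Selp and Vwf) and for 45.4% of all genes. For HET, the authors' deposited table had Cldn5 and Selp below it from 12 to 48 h, beside 15.5% of all genes. From 12 to 24 h in HET, the authors' deposited table had Selp below it (-1.03, adjusted p = 0.0197), beside 18.3% of all genes. By overlap, 6 of 8 members had every WT 48 h culture below every WT 12 h culture, against 20.7% of all genes, and 2 of 8 did so in HET, against 8.12%. From 12 to 24 h in HET, 2 of 8, Cldn5 and Selp, had every 24 h culture below every 12 h culture, against 13% of all genes.

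The order of the levels differed between times. At 12 h in WT the FPKM, a measure per transcript length, was 23.5 ± 4.47 for Pecam1, 21.0 ± 3.40 for Cdh5, 9.999 ± 0.785 for Kdr, 6.43 ± 0.881 for Vwf, 5.97 ± 1.47 for Cldn5, 5.73 ± 0.303 for Flt1, 2.97 ± 0.634 for Selp and 2.18 ± 0.484 for Tek (SD, n = 3). Pecam1 and Cdh5 overlapped within their spread, as did Vwf, Cldn5 and Flt1. At 48 h in WT it was 13.8 ± 2.61 for Pecam1, 7.94 ± 2.11 for Cdh5, 6.75 ± 0.713 for Kdr, 4.87 ± 1.07 for Flt1, 4.07 ± 0.786 for Vwf, 1.51 ± 0.338 for Tek, 0.908 ± 0.374 for Cldn5 and 0.385 ± 0.187 for Selp (SD, n = 3). Neighbours from Cdh5 to Kdr and from Flt1 to Vwf differed by less than the larger of their SDs. Cldn5 and Selp had moved to the bottom, below Tek. At 48 h in HET the FPKM of Cldn5 was 1.90 ± 1.23 and that of Selp 0.781 ± 0.350 (SD, n = 3), with Tek at 1.57 ± 0.221.

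Whether the genes moved alike was asked by setting each one against Pecam1 in the same culture, a comparison chosen after the data had been seen. The log2 ratio to Pecam1 was compared between 12 and 48 h by an exact two-sided permutation of the time labels within each genotype (400 arrangements, smallest possible p = 0.005), adjusted over 7 genes. Each shift is the mean of the WT and HET changes. Relative to Pecam1, Selp fell by 1.75 on the log2 scale (exact permutation adjusted p = 0.0175), Cldn5 fell by 1.60 (exact permutation adjusted p = 0.0175) and Cdh5 fell by 0.40 (exact permutation adjusted p = 0.0438). The Cdh5 change was -0.65 in WT and -0.14 in HET, and the Cldn5 change -1.99 in WT and -1.22 in HET. Flt1 rose by 0.58 relative to Pecam1 (exact permutation adjusted p = 0.0233). The shifts of Kdr (0.19), Tek (0.15) and Vwf (0.084) did not pass (exact permutation adjusted p of 0.204, 0.112 and 0.545). For Selp, the mean log2 ratio in WT went from -2.93 ± 0.108 to -5.21 ± 0.563 (SD, n = 3), and in HET from -3.04 ± 0.146 to -4.26 ± 0.328 (SD, n = 3). For Flt1 it went from -1.10 ± 0.216 to -0.58 ± 0.143 in WT and from -1.43 ± 0.233 to -0.79 ± 0.388 in HET (SD, n = 3). The Cdh5 call was lost in 8 of 12 settings that left out 1 culture, among them HET 48 h replicate 3 (-0.38, exact permutation adjusted p = 0.07). Kdr passed without WT 12 h replicate 5 (exact permutation adjusted p = 0.0438) and Tek without HET 12 h replicate 5 (exact permutation adjusted p = 0.042).

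**Figure D3:**
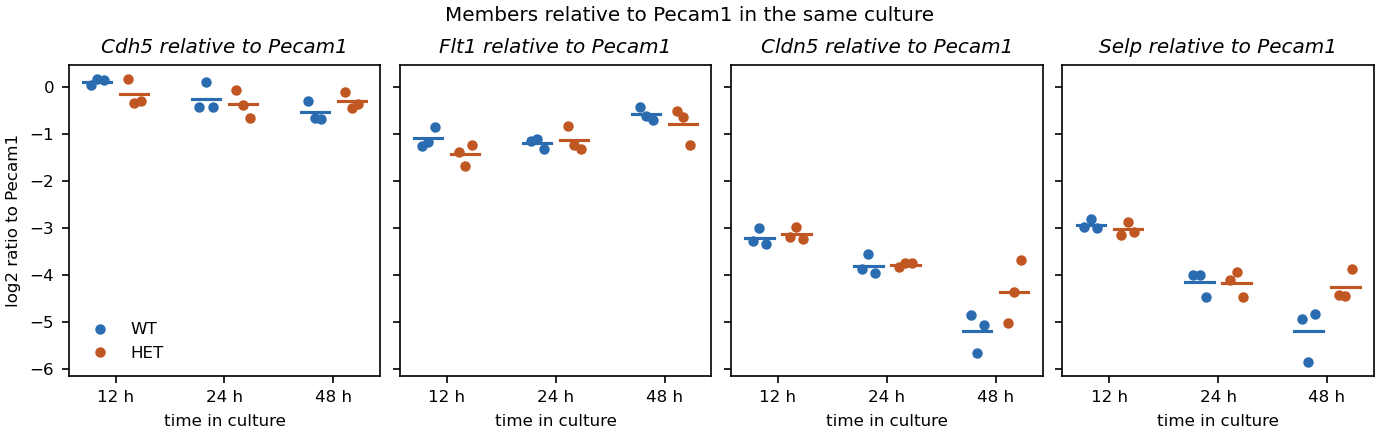
Log2 ratio of the normalized count of Cdh5, Flt1, Cldn5 and Selp to that of Pecam1 in the same culture (y axis) by time in culture (hours); points are cultures, lines are group means, WT blue and HET orange. From 12 to 48 h, relative to Pecam1 and as the mean of the WT and HET changes, Cldn5 fell by 1.60 and Selp fell by 1.75, and Flt1 moved up by 0.58.

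Across the 18 samples, pairs of members correlated from r = 0.14 (Flt1 with Cldn5) to r = 0.956 (Cldn5 with Selp, and Kdr with Vwf), with a median of 0.678 over 28 pairs. These values describe samples that share time, genotype and library scaling. Of 16127 other genes with a mean normalized count of at least 10, those most like the mean of the members over the 18 samples were Ptprb (r = 0.956), C130074G19Rik (0.951), Tcf4 (0.950), Bcl6b (0.949) and Mmrn2 (0.948). Ptprb encodes the endothelial tyrosine phosphatase VE-PTP, Mmrn2 a protein of the endothelial matrix and Bcl6b a transcriptional repressor.

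Of a wider list of 32 endothelial genes, 15 fell from 12 to 48 h in WT, 0 rose and 17 did not pass. Their median log2 fold change was -0.64, and 17.1% of all genes were called lower. The lowest p-values were those of Nos3, the endothelial nitric oxide synthase (-1.77, limma adjusted p = 1.83e-04), Icam1, a leukocyte adhesion molecule (-1.56, limma adjusted p = 2.88e-04), and Slco1a4, a transporter of the blood-brain barrier (-1.89, limma adjusted p = 3.06e-04). In HET, 2 of 32 fell, Nos3 (-0.93, limma adjusted p = 0.0416) and Lyve1, a lymphatic marker (-1.01, limma adjusted p = 0.0232), with a median of -0.28. Of all genes, 3.62% were called lower in HET. Without HET 48 h replicate 3 the count was 7 of 32, beside 8.61% of all genes called lower. From 12 to 24 h in HET, 4 of 32 rose and 0 fell, which for the rises is near the background of 13.1% of all genes called higher. The 4 were Sox17 (1.04, limma adjusted p = 0.00721), Abcb1a (0.73, limma adjusted p = 0.00832), Plvap (0.95, limma adjusted p = 0.0180) and Ecscr (0.93, limma adjusted p = 0.0264). Lyve1 and these 4 are named because of their small number, after their values were seen. In WT, 0 of 32 were called in that interval.

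Of 10 VEGF and angiopoietin ligands and co-receptors, 1 rose and 2 fell from 12 to 48 h in WT, beside 30% of all genes called higher and 17.1% lower. In HET 0 of 10 were called. Without HET 48 h replicate 3, 2 were called higher in HET, beside 3406 of 17198 genes. The named genes of this list are those called in WT. The co-receptor Nrp1 rose by 0.96 (limma adjusted p = 0.00289), the ligand Vegfb fell by 1.17 (limma adjusted p = 2.63e-04) and the co-receptor Nrp2 fell by 0.59 (limma adjusted p = 0.00331). Of 10 markers of mural cells, the contractile cells that wrap vessels, 3 rose and 2 fell in WT, shares near the 30% and 17.1% of all genes. Pdgfrb (1.34, limma adjusted p = 4.29e-04), Abcc9 (0.93, limma adjusted p = 0.0031) and Tagln (1.51, limma adjusted p = 0.00879) rose. The smooth muscle myosin gene Myh11 fell by 2.50 (limma adjusted p = 3.06e-05) and the mural receptor Notch3 by 0.91 (limma adjusted p = 0.0457). In HET, Pdgfrb rose by 1.04 (limma adjusted p = 0.0174) and Myh11 fell by 1.94 (limma adjusted p = 0.0121). Without HET 48 h replicate 3, 3 mural markers rose and 1 fell in HET, beside 3406 and 1480 of 17198 genes.

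Some markers of other cell types changed over the same period, and their part in the endothelial values was not tested. From 12 to 48 h, 30% of all genes were called higher and 17.1% lower in WT, and 10.6% and 3.62% in HET. The macrophage calls and the sensory neuron rises given here for WT were near or below these shares. Of 8 neutrophil and red cell markers, 8 fell in WT and 7 in HET from 12 to 48 h, with medians of -4.23 and -3.63. Their summed normalized count ran from 357 to 6889 at 12 h and 87 to 146 at 48 h in WT, and from 3012 to 7463 and 134 to 2099 in HET. The 2099 was in HET 48 h replicate 3, which also had the highest Cldn5 and Selp of its group. The lowest-counted marker of that list was at 1.14 at 48 h in WT. Of 8 platelet markers, 5 were matched. From 12 to 48 h in WT, Gp1bb (-0.96, limma adjusted p = 9.56e-04) and Itga2b (-0.56, limma adjusted p = 0.0254) fell. Their list summed to 1656 to 2141 at 12 h and 1459 to 1833 at 48 h in WT, and to 1284 to 1511 and 1293 to 1656 in HET. The platelet genes Ppbp and Pf4 were at 7.65 to 82.7 and 53.1 to 73.5 in WT cultures at 12 h. No gene has a 0 in the deposited values, so a value above 0 does not by itself show platelet RNA. Whether platelets added to the Selp and Vwf values was not tested. Of 7 macrophage markers, Cd68 rose (1.64) and Ptprc fell (-1.67) in WT, and the list summed to 1097 to 1838 at 12 h and 1958 to 3248 at 48 h. Of 5 fibroblast markers, 3 rose in WT (Col1a2 by 2.87, Col1a1 by 1.92 and Lum by 1.03), and their sum went from 4375 to 9447 at 12 h to 13431 to 22995 at 48 h. Of the Schwann and satellite glial markers given here, Fabp7 (-1.36) and S100b (-0.78) fell in WT. Of 7 sensory neuron markers, Isl1 (1.82) and Tubb3 (0.73) rose and Snap25 (-0.82), Nefl (-0.49) and Rbfox3 (-0.45) fell in WT, with sums of 345631 to 417068 and 369113 to 400292.

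**Figure D4:**
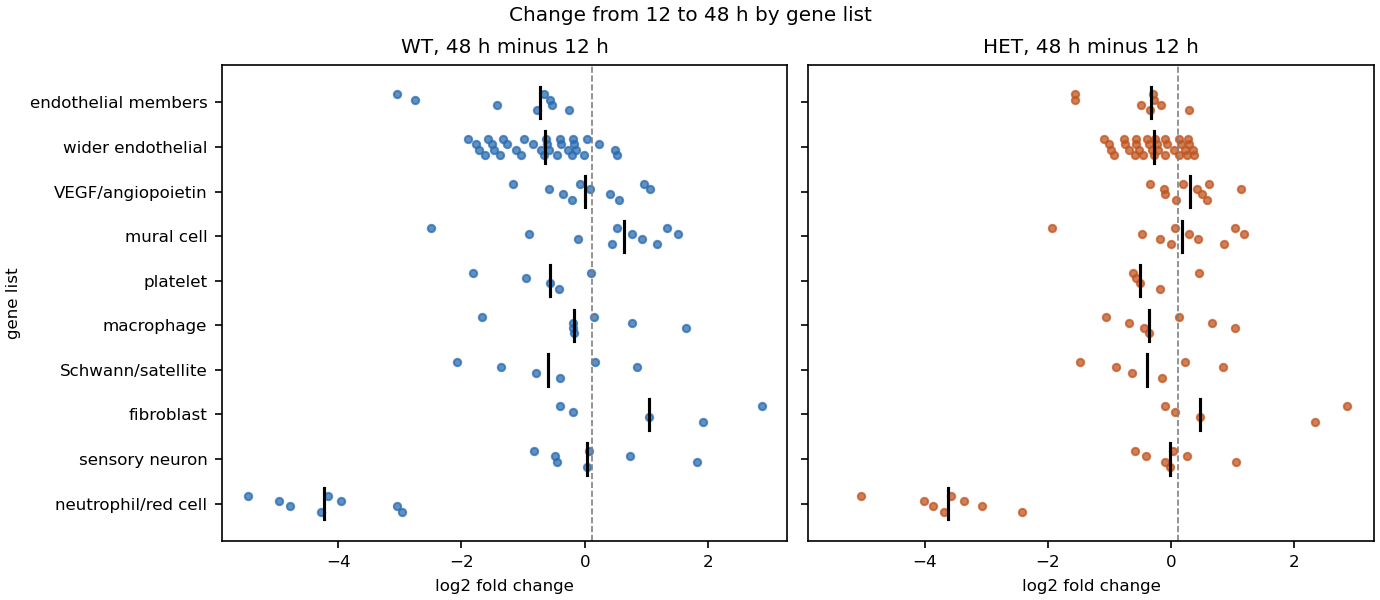
Log2 fold change from 12 to 48 h (x axis) of each measured gene in 10 marker lists (y axis), in WT (left) and HET (right); points are genes, black bars list medians and the dashed line the median of all genes (0.11 in WT, 0.10 in HET). The endothelial lists sit mostly below 0 in WT (medians -0.72 and -0.64), the neutrophil and red cell list lowest and the fibroblast list highest.

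Between genotypes, 0 of the 8 endothelial genes passed the limma test at 12, 24 or 48 h, averaged over the times, or in the difference of the 12 to 48 h change, in the fit without a replicate block. With the replicate number as a block within each time, a fit added after seeing the data, Selp passed at 48 h (1.07, limma adjusted p = 0.0262). That fit called 2120 of all genes (12.3%) at 48 h, so a call of 1 member was near the background share. In it 0 members passed at 12 or 24 h, and it was not run without HET 48 h replicate 3. In the fit without a block, the same comparisons called 0.00581%, 0.00581%, 0%, 0.0174% and 0% of all genes. At 48 h the count of all genes called was 0 with all cultures, 931 without WT 48 h replicate 3, 736 without HET 48 h replicate 1 and 513 without HET 48 h replicate 2, with 0 members called in each. At an unadjusted p below 0.05 there were 2, 0, 2, 0 and 2 members, and 1447, 198, 3782, 2315 and 1534 of all genes. In the deposited table of the authors' own tests, 0 members were called between genotypes, beside 0.0233%, 0.0116% and 5.98% of all genes at 12, 24 and 48 h.

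At 12 h all 8 members had a HET minus WT log2 fold change below 0, as did 52.8% of all genes, with a median of -0.43 against -0.02 over all genes. The values nearest to the threshold were those of Flt1 (-0.64, 95% interval -1.10 to -0.18, limma adjusted p = 0.577) and Cdh5 (-0.58, 95% interval -1.12 to -0.04, limma adjusted p = 0.580). For Flt1, every HET culture lay below every WT culture, as for 8% of all genes. At 24 h the median of the members was 0.01, and their values ran from -0.11 to 0.32.

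At 48 h, Selp and Cldn5 were the members with the largest HET minus WT values. Selp was at 1.07 (95% interval 0.27 to 1.87, limma adjusted p = 0.118), and every HET culture lay above every WT culture, as for 9.57% of all genes. With the block within each time its adjusted p by limma was 0.0262, in a fit that called 12.3% of all genes. Cldn5 was at 0.96 (95% interval 0.11 to 1.81, limma adjusted p = 0.178), and its groups overlapped. Without HET 48 h replicate 3 these were 0.73 (limma adjusted p = 0.500) for Selp and 0.47 (limma adjusted p = 0.685) for Cldn5. Without WT 48 h replicate 2, the lowest WT culture of both genes, they were 0.58 (limma adjusted p = 0.552) and 0.56 (limma adjusted p = 0.626). The other 6 members ran from -0.19 to 0.36. The difference between genotypes in the 12 to 48 h change was above 0 for all 8 members, while 51.4% of all genes were below 0. Its median over the members was 0.49 against -0.01 over all genes. It was highest for Selp (1.48, 95% interval 0.35 to 2.62, limma adjusted p = 0.548). For Tek, the smallest, it was 0.23 (95% interval -0.55 to 1.01, limma adjusted p = 0.841). Neutrophil and red cell markers were all 8 above 0 in the HET minus WT comparison at 12, 24 and 48 h. Their medians were 1.15, 0.46 and 1.74, and 0 of them passed the test. Of all genes, 52.8%, 47.1% and 54.8% were below 0 at these times. Without HET 48 h replicate 3 the 48 h median of that list was 0.78, with 2 of 8 below 0. Of the 32 wider endothelial genes, 30 were below 0 at 12 h and 13 at 48 h, with medians of -0.25 and 0.13, and 0 passed. At 48 h, 17 were below 0 without HET 48 h replicate 3, with a median of -0.01.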

How the data were processed

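RNA-seq values of 18 cultures were read from the authors' deposited gene table of 17198 genes, 16529 of them with an Ensembl ID. Per the submitters' processing notes, CASAVA 1.8.2, edgeR and the mm10 build were used; aligner, annotation and strand setting are not given in the sources used here. Per the file headers, 18 columns hold normalized counts, a signal that the authors had adjusted, with no whole numbers and no 0. A second deposited set of 18 signal columns, called plain adjusted columns, has totals from 39465712 to 44213485. Their logarithms span 15 of 17 possible dimensions, so 2 directions among samples had been removed by a step not given in the sources used here, and residual degrees of freedom may be overstated. Deposited FPKM values, log2 fold changes and adjusted p-values of the authors were read for levels per length and for comparison. Another 24 per-sample columns were not used.

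Values were taken as log2(normalized count + 1). A minimum mean of 1 was set, which removed 0 genes. limma 3.58.1 (R 4.3.3) was fitted to all 18 samples with 1 coefficient per group and eBayes with a trend (degrees of freedom: 12 residual, 5 prior), with Benjamini-Hochberg adjustment in each of 11 comparisons, and was tested on simulated data. The count test named in the design could not be used, because the values are not counts. Genes named outside the members were, per list, up to 3 per direction with the lowest p among those called from 12 to 48 h in WT, any called between genotypes, and the 5 most like the members. Members and lists were chosen with earlier results of these data known. Alternatives were a pseudocount of 0.1, no filter, a minimum mean of 5, the plain adjusted columns, the removed directions as covariates, a replicate block, only the samples compared, and each culture left out. Descriptive values and figures used Python 3.11.15, pandas 2.3.3 and scipy 1.17.1. Labels do not say that a replicate number marks a shared animal or day. Deviations of same-numbered WT and HET cultures correlated over 0.1 in all 3 pairs at 48 h (r of 0.321, 0.209 and 0.461) and not in all pairs at 12 or 24 h. The main fit used no pairs, and no fit paired the numbers at 48 h alone. A replicate block was fitted shared over the times and, as a choice made after the fits had been seen, within each time. Some results of the glial marker list are not reported here.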

Additional observations from a re-analysis of the deposited data

Results flagged for a closer look

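For 3 members, on the log2 scale, every HET culture lay below the WT mean at 12 h and every HET culture lay above it at 48 h. The share of all genes with this pattern was not counted, so the number of members has no background beside it. On the count scale, Cdh5 in HET 48 h replicate 2 (1299.6) lay below the WT 48 h mean (1314.3). The HET minus WT log2 fold change of Selp was -0.41 at 12 h and 1.07 at 48 h. For Cldn5 it was -0.23 and 0.96, and for Cdh5 -0.58 and 0.36. The test of the difference between genotypes in the 12 to 48 h change gave 1.48 for Selp (limma adjusted p = 0.548), 1.20 for Cldn5 (limma adjusted p = 0.556) and 0.94 for Cdh5 (limma adjusted p = 0.548), and none passed. Without HET 48 h replicate 3 those differences were 1.14 for Selp, 0.71 for Cldn5 and 0.81 for Cdh5. The Flt1 value from 12 to 24 h was -0.36 in WT, with every 24 h culture below the 12 h mean, and 0.36 in HET, with every 24 h culture above it; this difference was not tested.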

How the results depend on the processing

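With a pseudocount of 0.1, no filter, or a minimum mean of 5, every member kept its direction and its side of the threshold in every comparison. On the plain adjusted columns the median of all genes from 12 to 48 h in WT was 0.00688 in place of 0.112, and 52.6% of called genes were higher in place of 63.6%. The share was 51.8% (62.8%) for 24 to 48 h in WT, and in HET 57.1% (69.5%), 45.1% (56.9%) and 51.9% (74.5%) for 12 to 24, 24 to 48 and 12 to 48 h. There Kdr (-0.68, limma adjusted p = 0.0318) and Vwf (-0.77, limma adjusted p = 0.0356) passed from 12 to 48 h in WT. In that comparison 21.9% of all genes were called lower, in place of 17.1%. With the removed directions as covariates, 0 members were called from 12 to 24 h in WT (Selp, limma adjusted p = 0.0512), and Cdh5 was not called from 24 to 48 h (limma adjusted p = 0.0535). With only the samples compared, 1 member was called from 12 to 24 h and 0 from 12 to 48 h in HET, beside 15.9% and 0% of all genes. Same-numbered cultures of both genotypes at the same time deviated from their group means with a mean r of 0.17 (9 pairs, -0.21 to 0.46, 7 over 0.1). A replicate block within each time called 1 member, Selp, between genotypes at 48 h (1.07, limma adjusted p = 0.0262). Over all genes it called 2120 (12.3%) in place of 0 at 48 h and 17 in place of 1 at 12 h. A replicate block shared over the times called 1 member from 12 to 24 h and 2 from 24 to 48 h in HET, beside 24.1% and 12.1% of all genes. It also called 1, Selp, between genotypes at 48 h (1.07, limma adjusted p = 0.0459), beside 10.4% of all genes. Over all genes, the replicate block called 1218 in place of 622 from 12 to 24 h in WT, 2084 in place of 429 and 5099 in place of 2442 from 24 to 48 h and from 12 to 48 h in HET, 1790 in place of 0 between genotypes at 48 h and 205 in place of 3 averaged. The covariates called 1132 from 12 to 24 h in WT and 841 from 24 to 48 h in HET, and only the samples compared called 0 in the latter and 0 from 12 to 48 h in HET. Leaving out 1 culture gave 0 to 0 members from 12 to 24 h in WT, beside 0% to 1.15% of all genes called. It gave 1 to 5 from 24 to 48 h and 3 to 5 from 12 to 48 h, beside 13% to 26.1% and 35.1% to 44.6%. In HET it gave 0 to 2, 0 to 3 and 0 to 2, beside 6.63% to 16.9%, 0% to 14.9% and 0% to 28.4%. From 12 to 24 h in HET the members so called were Kdr and Vwf, which rose, and Selp, which fell. In the genotype comparisons, leaving out 1 culture gave 0 to 0 members, with 0 to 931 of all genes at 48 h. Ratios to Pecam1 were also recomputed, a choice made after seeing the data, with a pseudocount of 0.1 and on the plain adjusted columns, and all 7 kept their side of the threshold in both. Counts over the marker lists on the plain adjusted columns and without HET 48 h replicate 3 were likewise added after seeing the data. The cause of these changes was not tested. DESeq2 was not run, because the values are not counts, and depth is unknown.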
